A study of Mus musculus with 12 samples.

Results

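The genes described here are 10 that mark endothelial cells, the cells that line blood vessels: Kdr, Flt1, Cdh5, Cldn5, Esam1, Pecam1, Cd93, Emcn, Egfl7 and Robo4. They were chosen by name, with earlier results of these data known. Every array probe that carries one of those names was taken. All 10 were on the array, which carries 27962 gene names, with 18 of its 41174 probes. RNA had been measured in the hypertrophic zone of the tibial growth plate, the layer of enlarged chondrocytes next to the bone front, in 2 mouse models in which a misfolding protein is made there and in their wildtype littermates. There were 4 groups of 3 mice, all aged 14 days, with 1 array per mouse and 1 tibia per mouse.

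Schmid mice carried the Col10a1 p.Asn617Lys substitution in collagen X, as homozygotes. Cog mice carried ColXTgcog, a transgene in which the Col10a1 promoter drives a misfolding form of thyroglobulin, and animals with 1 and 2 copies of it were not told apart. Each mutant had its own wildtype group, named for the Schmid background or the Cog background, and these carried neither change. The zone was cut by hand with a scalpel from frozen sections, so that cells other than chondrocytes could be carried along, and the RNA went through linear amplification before labelling.

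The growth plate holds no vessels in its resting and proliferating layers, and vessels from the bone enter at the last row of hypertrophic chondrocytes. Vascular endothelial growth factor, made by hypertrophic chondrocytes, acts there on Kdr (the main signalling receptor) and Flt1 (a high-affinity receptor that also acts as a decoy). Endothelial cells are held together by Cdh5 (VE-cadherin, of adherens junctions), Cldn5 (of tight junctions), and the adhesion molecules Esam1 and Pecam1. Emcn and Cd93 are sialomucin and lectin-like glycoproteins of the endothelial surface, Robo4 is an endothelial receptor of the roundabout family, and Egfl7 is a protein that endothelial cells secrete into the matrix. Many endothelial genes are driven by ETS factors, which bind sites with the core GGAA.

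Promoter sequences (RefSeq, GRCm38.p6) were given for 6 of the 10 genes, Kdr, Flt1, Cldn5, Emcn, Egfl7 and Robo4, with 8 promoters among them because Egfl7 has 3. They are shown because these genes shifted together in Schmid mice and because ETS sites are their best known shared feature. The 120 bases before the start of transcription follow for the 5 promoters that hold GGAAG, or CTTCC on the other strand, in that stretch. The capitals mark these letters.
Flt1, chr5:147726012-147726131, minus strand: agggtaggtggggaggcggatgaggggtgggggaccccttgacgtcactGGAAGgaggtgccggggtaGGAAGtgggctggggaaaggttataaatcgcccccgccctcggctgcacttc
Emcn, chr3:137340958-137341077, plus strand: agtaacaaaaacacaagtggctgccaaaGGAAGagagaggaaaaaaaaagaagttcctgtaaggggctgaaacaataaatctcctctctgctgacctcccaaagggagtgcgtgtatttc
Egfl7, promoter 1, chr2:26580963-26581082, plus strand: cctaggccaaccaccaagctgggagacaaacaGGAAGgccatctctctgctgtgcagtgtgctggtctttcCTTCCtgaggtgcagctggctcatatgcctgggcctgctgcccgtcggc
Egfl7, promoter 2, chr2:26583745-26583864, plus strand: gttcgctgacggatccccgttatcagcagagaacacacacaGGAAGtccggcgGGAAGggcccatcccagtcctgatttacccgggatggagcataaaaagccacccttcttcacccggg
Robo4, chr9:37401852-37401971, plus strand: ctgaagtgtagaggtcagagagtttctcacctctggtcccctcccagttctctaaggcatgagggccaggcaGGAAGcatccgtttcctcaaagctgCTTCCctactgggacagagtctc

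Over the whole window of 300 bases, from 250 before to 50 after the start, GGAAG was found on either strand in 6 of the 8 promoters and in 5 of the 6 genes, Cldn5 being without it. The same 5 letters occurred in 71.4% of all 32851 promoters of that length, so this share is close to that of other genes. The longer CAGGAAG, which contains GGAAG, was found in 4 of the 8 promoters, in Emcn, Egfl7 and Robo4, against 13.3% of all promoters. AACAGGAA, which overlaps CAGGAAG by 6 letters, was found in 2 of the 8, in Emcn and Egfl7, against 2.65%. CACCC was found in 5 of the 8 against 57.5%, and TATAAA in 1 of the 8, that of Flt1, against 13.6%. None of the 8 held CCGGAAG, which 8.86% of all promoters hold. None held AGATAAG, against 3.04%, and none held CACGTG, against 7.15%. These are matches of letters in a window and not measured binding.

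Signals are log2 values of the background-corrected and quantile-normalised intensity, a scale on which 1 unit is 2-fold, and each gene is represented by its probe with the highest mean over the 12 arrays. A probe was called changed at a Benjamini-Hochberg adjusted p of 0.05 or less over all probes, from limma on all 12 arrays, together with a change of at least 2-fold. Tgn, the thyroglobulin gene, was 239-fold higher in Cog mice than in their wildtype at the brighter of its 2 probes (adjusted p = 1.24e-09) and did not pass the threshold in Schmid mice. The Col10a1 probe does not see the Schmid substitution, and checks nothing there. From 58.9% to 61.8% of spots were well above background on the Schmid arrays and from 39.6% to 59.4% on the other 9. The median unnormalised signal of the negative control spots was 201.9 to 617.5 on the Schmid arrays and 977.2 to 1894 on the other 9, and its part in the levels below was not tested. Of the 4 slides, none held arrays of a mutant and of that mutant's wildtype together, and a slide effect cannot be told apart from one of genotype.

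In Schmid mice 9 of the 10 endothelial genes were called lower than in wildtype at the brightest probe, the exception being Pecam1. Counted by probe, 9 of their 18 probes were called lower. The share over all probes on the array, dim ones included, was 4.69%. The 10 genes were chosen with earlier results known, so that this contrast is a description. The log2 differences had a median of -2.25 over the 10 genes, against -0.0624 over all probes. They ran from -3.42 for Cd93 to -0.25 for Pecam1. For each of the 10, all 3 Schmid arrays were below all 3 wildtype arrays, which was so for 26.0% of all probes. In Cog mice 2 of the 10, Cldn5 and Robo4, were called lower, against 0.748% of all probes, with a median difference of -0.905 over the 10 genes and -0.00441 over all probes. All 3 Cog arrays were below all 3 of their wildtype for 7 of the 10, against 13.0% of all probes. The Cog count of 2 became 1 without Cog replicate 1 or without replicate 2 or 3 of WtCog, the wildtype of the Cog background. Without these arrays the Cog calls over all probes went from 952 to 738, 303 and 483. In whole tissue, fewer endothelial cells and less of these RNAs in each cell cannot be told apart.

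**Figure D1:**
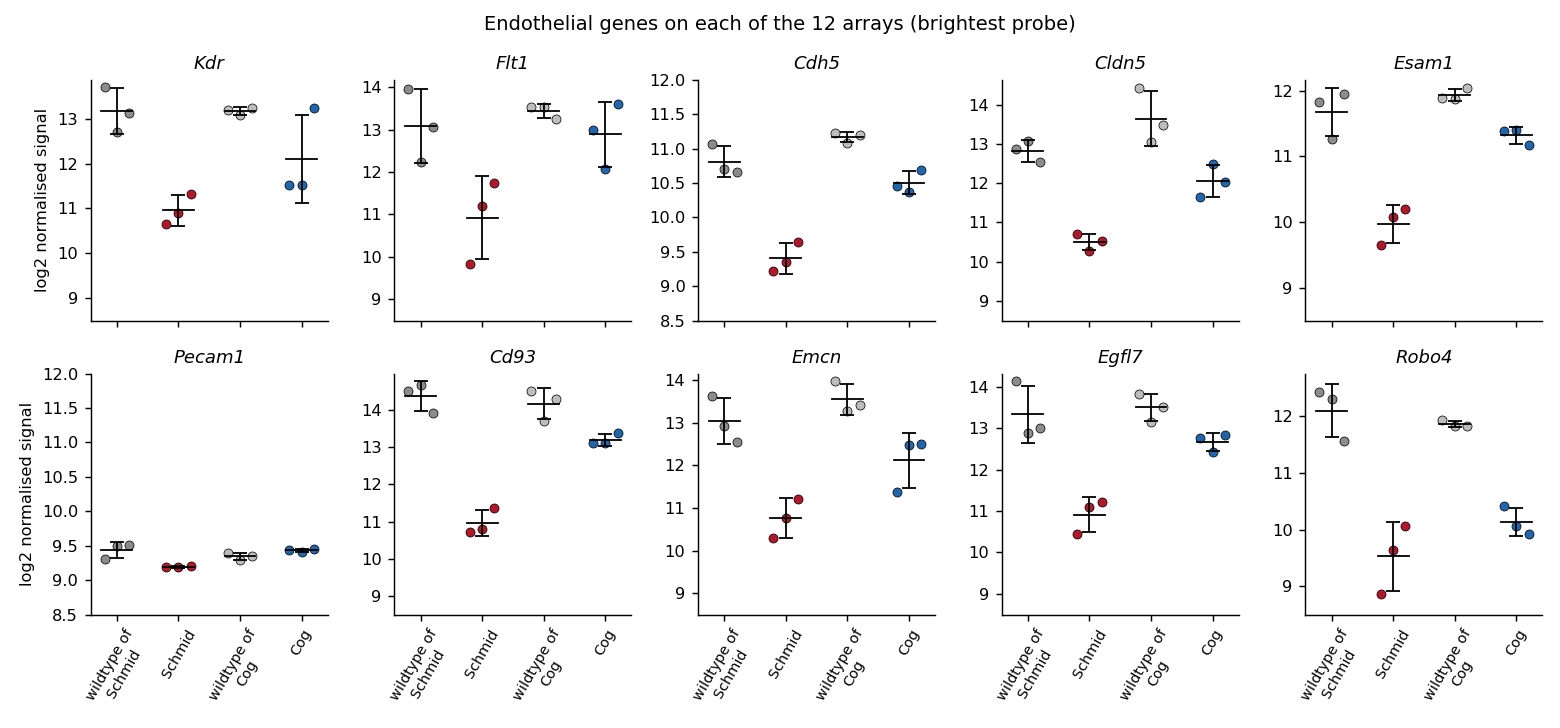
Log2 normalised signal (vertical axis) of the brightest probe of each of the 10 endothelial genes in the 4 groups (horizontal axis), with a vertical scale for each gene; points are single arrays, the line is the mean and the bars are 1 SD over 3 arrays. Schmid arrays lie below all their wildtype arrays in every panel, with differences between the means from -0.25 (Pecam1) to -3.42 (Cd93), and the Cog means lie between the Schmid and wildtype means for the 9 genes other than Pecam1.

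Kdr was measured at chr5:75351537-75351596 (mm7, the build of the array's own annotation, minus strand), with 10 spots on each array. It read 10.65, 10.90 and 11.32 on the Schmid arrays and 13.72, 12.71 and 13.12 on those of their wildtype. It was 4.67-fold lower in Schmid (log2 difference -2.22 ± 0.42 SE, adjusted p = 0.00497). In Cog mice it read 11.53, 11.53 and 13.23 against 13.19, 13.09 and 13.25. Cog replicates 1 and 2 were low and replicate 3 lay within the wildtype range. The Cog difference of -1.08 did not pass the test (95% interval -2.02 to -0.13, adjusted p = 0.177), and without Cog replicate 3 it was -1.64 (adjusted p = 0.0188), past the threshold.

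Flt1, the other growth factor receptor, lies on the same chromosome and has 5 probes, of which the brightest is at chr5:146456619-146456678. It read 9.84, 11.19 and 11.74 in Schmid and 13.97, 12.23 and 13.05 in their wildtype. The highest Schmid array lay 0.49 below the lowest wildtype array, the smallest gap of the 9 genes called. Flt1 was 4.47-fold lower in Schmid (log2 difference -2.16 ± 0.56 SE, adjusted p = 0.0197). The call was lost without Schmid replicate 1 (adjusted p = 0.069), without WtSch replicate 3, a wildtype array of the Schmid background (adjusted p = 0.051), and in a fit to the 6 arrays of this comparison alone (adjusted p = 0.0572). In Cog mice Flt1 read 13.00, 12.08 and 13.59 against 13.54, 13.53 and 13.24. These ranges overlapped, and the difference of -0.55 had an interval of -1.78 to 0.68 (adjusted p = 0.615).

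Cdh5 was measured at chr8:102744763-102744822 (plus strand). It read 9.22, 9.35 and 9.65 in Schmid and 11.07, 10.70 and 10.66 in wildtype, and 1 of the 3 Schmid arrays was well above background. It was 2.65-fold lower in Schmid (log2 difference -1.40 ± 0.15 SE, adjusted p = 0.000348). With the scanner's processed signal this difference was -3.09 under quantile normalisation and -3.08 at a common 75th percentile. In Cog mice it read 10.45, 10.37 and 10.69 against 11.23, 11.09 and 11.19, so that the groups did not overlap. That difference of -0.67 ± 0.15 SE had an adjusted p of 0.038 but was 1.59-fold, short of the 2-fold required.

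Cldn5, at chr16:18327686-18327745 (plus strand), was lower in both mutants. In Schmid it read 10.70, 10.28 and 10.52 against 12.88, 13.08 and 12.53 in wildtype, a 5.03-fold lower level (log2 difference -2.33 ± 0.33 SE, adjusted p = 0.00116). In Cog it read 11.65, 12.48 and 12.02 against 14.43, 13.04 and 13.47. The wildtype array at 14.43 stood highest of the 12 by 0.95. Cldn5 was 3.02-fold lower in Cog (log2 difference -1.59 ± 0.33 SE, adjusted p = 0.0269). This Cog call was lost without Cog replicate 1 (adjusted p = 0.0732), without Cog replicate 3 (0.0702), without WtCog replicate 3, a wildtype array of the Cog background (0.0656), and in a fit to the 6 arrays of the comparison (0.11).

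Esam1, at chr9:37466577-37466636 (plus strand), read 9.65, 10.08 and 10.20 in Schmid and 11.83, 11.26 and 11.95 in wildtype. It was 3.27-fold lower (log2 difference -1.71 ± 0.20 SE, adjusted p = 0.000411), and with the processed signal the difference was -2.37 or -2.48. In Cog mice it read 11.39, 11.41 and 11.18 against 11.90, 11.87 and 12.05. The Cog arrays were all below the wildtype arrays, but the difference of -0.62 did not pass the test (95% interval -1.05 to -0.18, adjusted p = 0.104).

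Pecam1, often used as the defining endothelial marker, was not well above background on any of the 12 arrays at either of its 2 probes. The brighter probe, with 10 spots, is shown because it is the only member of the 10 that was not measured above background. It covers chr11:106790116-106791969 (mm7, minus strand), 1854 bases of genome for a probe of 60 bases, and so crosses an intron.
Pecam1 probe: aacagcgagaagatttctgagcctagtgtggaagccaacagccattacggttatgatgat
It read 9.19, 9.19 and 9.20 in Schmid, 9.30, 9.50 and 9.52 in their wildtype, 9.44, 9.41 and 9.46 in Cog, and 9.39, 9.29 and 9.35 in their wildtype. All 12 values lay within a range of 0.33. The Schmid difference of -0.25 (adjusted p = 0.0799) and the Cog difference of 0.09 (adjusted p = 0.612) compare groups that are both below background, and no fold is given.

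Cd93 had the largest Schmid difference of the 10 genes at the brightest probe and on the background-corrected signal, whereas with the scanner's processed signal that of Robo4 was larger. Its brighter probe, at chr2:148177557-148177616 (minus strand), read 10.71, 10.79 and 11.36 in Schmid and 14.51, 14.68 and 13.93 in wildtype, a gap of 2.57 between the highest Schmid and the lowest wildtype array. It was 10.7-fold lower (log2 difference -3.42 ± 0.26 SE, adjusted p = 7.77e-05). In Cog mice it read 13.10, 13.11 and 13.39 against 14.52, 13.70 and 14.31. The Cog arrays lay together and below all 3 wildtype arrays, and the difference of -0.97 did not pass the test (95% interval -1.56 to -0.39, adjusted p = 0.0667).

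Emcn, at chr3:137226821-137226880 (plus strand), read 10.30, 10.77 and 11.22 in Schmid and 13.63, 12.92 and 12.56 in wildtype. It was 4.85-fold lower (log2 difference -2.28 ± 0.38 SE, adjusted p = 0.00249). In Cog mice it read 11.38, 12.48 and 12.49 against 13.96, 13.26 and 13.42, with Cog replicate 1 the lowest. The Cog difference of -1.43 missed the threshold (95% interval -2.27 to -0.59, adjusted p = 0.062). It passed with the signal scaled to a common 75th percentile (adjusted p = 0.0438), with dim probes left out (0.0479), with the slide as a random block (0.0133) and with array weights (0.0325). It also passed without WtSch replicate 1 (adjusted p = 0.043), an array that enters this comparison only through the shared estimate of spread. In these settings, in the order given, the Cog calls over all probes went from 952 to 677, 1029, 1642, 1919 and 1133. No slide held Cog arrays together with those of their wildtype, so the slide block cannot separate slide from genotype.

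Egfl7, at chr2:26599768-26599827 (plus strand), read 10.43, 11.09 and 11.22 in Schmid and 14.13, 12.88 and 13.01 in wildtype. It was 5.38-fold lower (log2 difference -2.43 ± 0.33 SE, adjusted p = 0.000984). In Cog mice it read 12.76, 12.42 and 12.83 against 13.83, 13.16 and 13.52. The groups did not overlap, and the difference of -0.83 did not pass the test (95% interval -1.58 to -0.09, adjusted p = 0.183).

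Robo4, at chr9:37342570-37342629 (plus strand), was lower in both mutants. It read 8.87, 9.65 and 10.07 in Schmid and 12.44, 12.30 and 11.57 in wildtype, and was well above background on 2 of the 3 Schmid arrays. It was 5.95-fold lower (log2 difference -2.57 ± 0.30 SE, adjusted p = 0.000476). The size of this difference depended on the signal used, and with the scanner's processed signal it was -4.38 or -4.75. In Cog it read 10.41, 10.07 and 9.92 against 11.94, 11.84 and 11.83, with 2 of the 3 Cog arrays well above background. It was 3.33-fold lower there (log2 difference -1.73 ± 0.30 SE, adjusted p = 0.0145). The Cog call was lost without WtCog replicate 2 (adjusted p = 0.0592), with the processed signal under quantile normalisation (-2.50, adjusted p = 0.0766) or a common 75th percentile (-2.41, adjusted p = 0.206), and against a 2-fold null (adjusted p = 1).

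**Figure D2:**
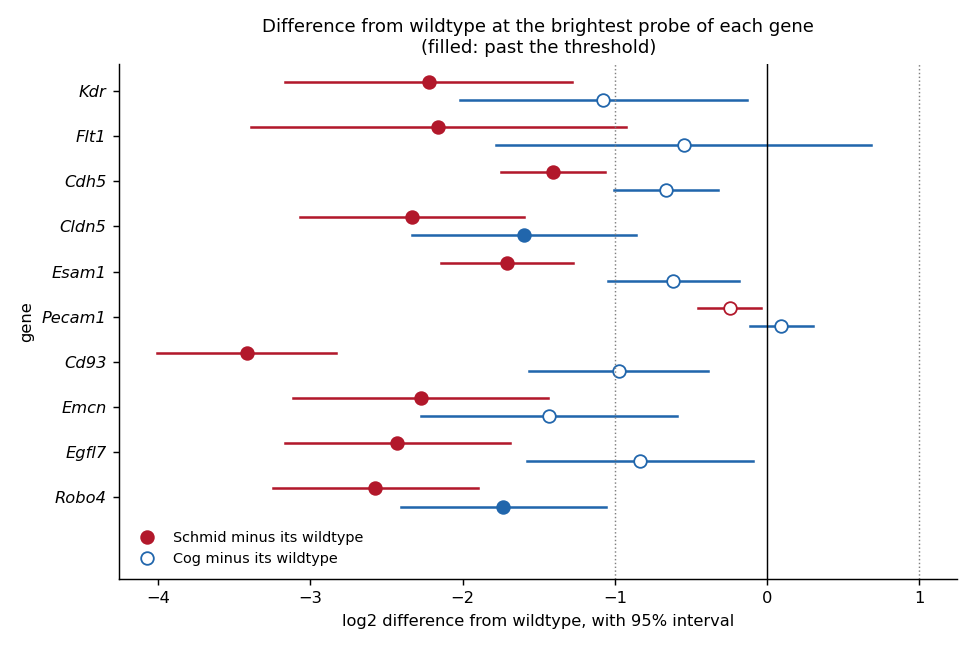
Log2 difference from wildtype (horizontal axis) at the brightest probe of each gene (vertical axis), with its 95% interval over 3 against 3 arrays; filled points passed the threshold and dotted lines mark 2-fold. The 9 filled Schmid points run from -3.42 to -1.40 and the 2 filled Cog points are Robo4 at -1.73 and Cldn5 at -1.59.

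Whether the Schmid and Cog differences differed from each other was tested directly, as the Schmid difference minus the Cog difference. It was negative for each of the 10 genes, with a median of -0.968 against -0.0263 over all probes. It passed the threshold for 3 of the 10, where 10.3% of all probes passed it in either direction. These were Cd93 (-2.44 ± 0.37 SE, adjusted p = 0.00256), Egfl7 (-1.59 ± 0.47 SE, adjusted p = 0.044) and Esam1 (-1.09 ± 0.28 SE, adjusted p = 0.0242). Cdh5 had an adjusted p of 0.0435 at a difference of -0.74, under 2-fold. For the remaining 6 the interval of this difference included 0 or the adjusted p was above the threshold, among them Robo4 (95% interval -1.79 to 0.11), Cldn5 (-1.78 to 0.31), Emcn (-2.04 to 0.34), Kdr (-2.48 to 0.19) and Flt1 (-3.35 to 0.13).

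The Cd93 call was kept without each array in turn and, of the alternatives run, was lost only in a test against a 2-fold null (adjusted p = 0.139), whereas the other 2 were near the threshold. Egfl7 lost its call without any 1 of 8 arrays (adjusted p from 0.0534 to 0.103) with the replicate number as a block (adjusted p = 0.055), with the signal scaled to a common 75th percentile (0.0623) and with the processed signal under either scaling (0.085 and 0.12). Esam1 lost it without Schmid replicate 1, WtSch replicate 3, Cog replicate 1 or WtCog replicate 2 (adjusted p from 0.0508 to 0.0597) and with the processed signal (0.0702 and 0.0969), and fell just under 2-fold with array weights (-0.99). Without Schmid replicate 1, Cog replicate 1 or WtCog replicate 2 the count of 3 became 1, while calls over all probes went from 4224 to 3203, 3793 and 3150. When a smooth trend over the rows of each array was removed, both lost their calls (adjusted p = 0.161 for Egfl7 and 0.107 for Esam1). Their probes, with those of Flt1, Cldn5 and Cdh5, lie in the first 159 of 532 rows, where 10.4% of probes, and in the rows after them 2.27%, were called lower in Schmid. After that trend was removed the Schmid count stayed at 9 of 10 and the Cog count at 2 of 10.

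The wildtype groups did not differ at any of the 10 genes by the threshold, where 0.469% of all probes did. At an unadjusted p of 0.05 there were 2, Cldn5 (0.81 lower in the Schmid background on the log2 scale, adjusted p = 0.299) and Cdh5 (0.36 lower, adjusted p = 0.324). The interval for Kdr, at a difference of 0.00, was -0.94 to 0.95, and that for Cd93, at 0.20, was -0.39 to 0.79. Averaged over the 9 genes above background, the level was 12.5 to 13.1 on the WtSch arrays, 12.7 to 13.2 on the WtCog arrays, 11.7 to 12.2 on the Cog arrays and 10.0 to 10.8 on the Schmid arrays.

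The genes with more than 1 probe were Flt1 with 5 and Kdr, Cdh5, Pecam1 and Cd93 with 2 each. In each of the 5 the brightest probe was the one nearest the 3′ end of the gene by the array's coordinates. Of the 18 probes, 9 were called lower in Schmid, and these were the brightest probes of the 9 genes. The second Cd93 probe, given here because it disagrees in Cog with the first, lies 4.52 kb towards the 5′ end at chr2:148182073-148182379, a span of 307 bases for 60 bases of probe.
Cd93 second probe: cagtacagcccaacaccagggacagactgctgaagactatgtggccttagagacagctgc
It read 9.66, 9.35 and 9.74 in Schmid against 10.06, 10.32 and 10.21 in wildtype, a difference of -0.61 (adjusted p = 0.00879) that is under 2-fold. In Cog it read 10.31, 10.30 and 10.21 against 9.98, 9.98 and 10.24, a difference of 0.21 (adjusted p = 0.396).

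The second Flt1 probe, 0.073 kb from the first, read 8.56, 9.90 and 10.37 in Schmid and 11.68, 9.48 and 10.93 in wildtype. Its difference of -1.08 did not pass the test (95% interval -2.43 to 0.26, adjusted p = 0.21), and its lowest wildtype array was WtSch replicate 2, as at the first probe. The 3 other Flt1 probes lie 76 to 92.2 kb away. The one at 76 kb differed by -1.18 in Schmid (adjusted p = 0.0929), and had no Cog array well above background, being there at least 1.60-fold lower than in wildtype (adjusted p = 0.171). The one at 92.2 kb differed by -0.76 in Schmid (adjusted p = 0.00339), under 2-fold. The one at 83.3 kb was below background on all 12 arrays. The second Kdr probe, 30.6 kb from the first, was well above background on 3 of the 12 arrays, none of them mutant. Its signal in Schmid, not well above background, was 1.34-fold lower than in wildtype (adjusted p = 0.0211). The second Cdh5 probe and the second Pecam1 probe were below background on all 12 arrays.

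**Figure D3:**
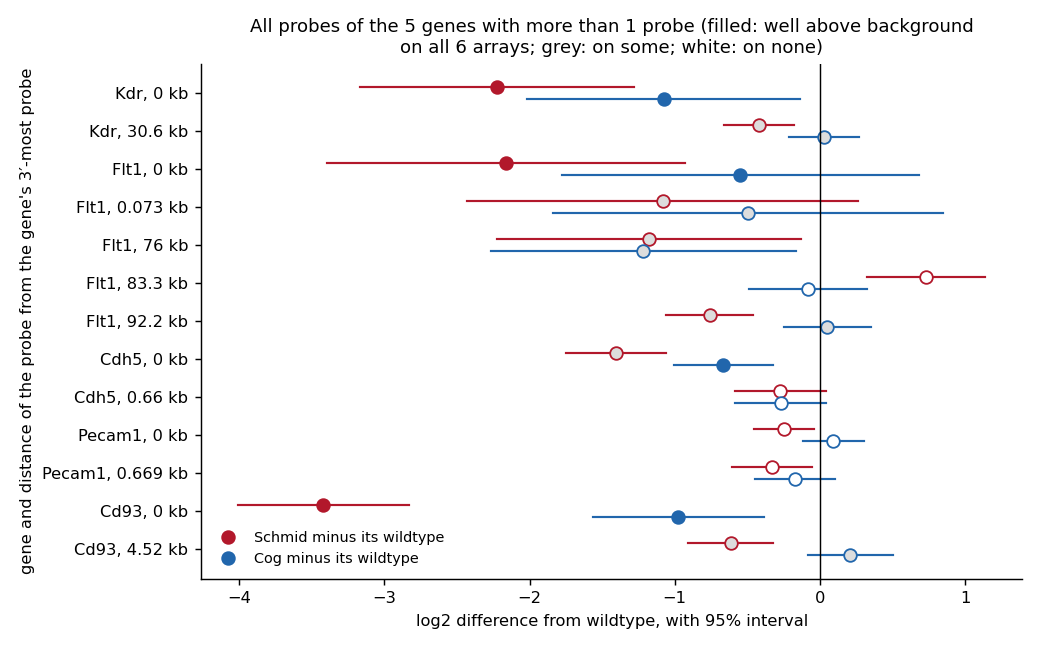
Log2 difference from wildtype with its 95% interval (horizontal axis) for each of the 13 probes of the 5 genes with more than 1 probe, ordered by distance from the gene's 3′-most probe (vertical axis); filled points were well above background on all 6 arrays compared, grey on some and white on none. In Schmid the 3′-most probe of Kdr, Flt1, Cdh5 and Cd93 shows the lowest value of its gene.

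Within groups the genes varied together to differing degrees. With group means removed, the Pearson correlation between pairs of the 9 genes above background over the 12 arrays ran from -0.295 to 0.866 over 36 pairs, with a median of 0.512. It was above 0 for 32 of the 36. The highest were Cdh5 with Egfl7 (0.866), Flt1 with Cdh5 (0.847) and Flt1 with Egfl7 (0.818), and the lowest was Cldn5 with Esam1 (-0.295). The points share arrays, and each group contributes 3, so these values are descriptions. Flt1 had the widest spread in Schmid, with replicate 1 lying 1.09 below its group mean, and Kdr the widest in Cog, with replicate 3 lying 1.14 above.

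**Figure D4:**
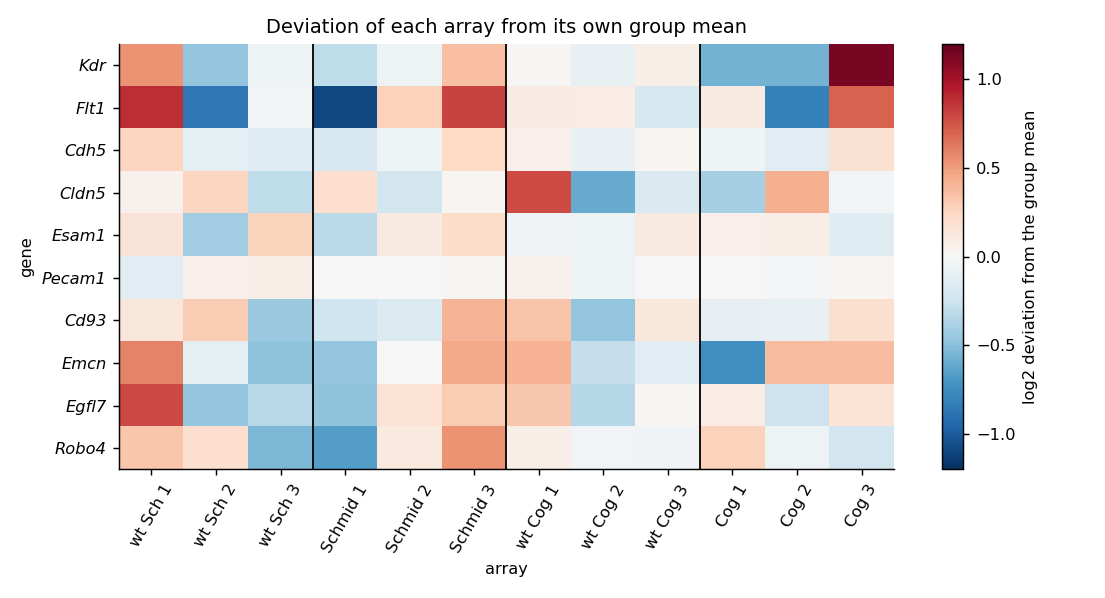
Colour shows, on the log2 scale, how far each array (columns, grouped by genotype) lay from its own group mean for each of the 10 genes (rows). Cog replicate 3 is high for Kdr (1.14) and Flt1 (0.71), and Schmid replicate 1 is low for Flt1 (-1.09), Robo4 (-0.66) and Egfl7 (-0.48). WtSch replicate 1 is high for Flt1 (0.89), Egfl7 (0.79), Emcn (0.60) and Kdr (0.54), and nearer its group mean for Cd93 (0.14) and Cldn5 (0.05).

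The 10 named genes whose deviations were most like the mean of the endothelial genes over the 12 arrays, among 19785 probes with a gene symbol that were above background on at least 6 arrays, were Kif22 (Pearson r = 0.952), Rbl1 (0.926), Plxna2 (0.925), Ppfibp2 (0.924), Plekhh2 (0.921), 2810451A06Rik (0.917), Pard6g (0.916), Pfkfb2 (0.909), Rshl2 (0.908) and Wwtr1 (0.902). None was in a marker list used here. The ranking takes the highest of many values over only 12 arrays with group means removed. These correlations are therefore descriptions without a p, and chance was not excluded. They did not share a direction in Schmid. Kif22 and Ppfibp2 were lower, by -1.12 (adjusted p = 0.0229) and -1.21 (adjusted p = 0.0138). Rshl2 was higher by 0.715 (adjusted p = 0.02), under 2-fold, and Pfkfb2 by 0.917 (adjusted p = 0.174). Wwtr1 differed by 0.05 (adjusted p = 0.876), and the others had differences below 0 that did not pass the threshold.

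Of 43 other endothelial genes on the array, 14 were lower and 1 was higher in Schmid, and 7 were lower and 1 higher in Cog. Over all 41174 probes, 4.69% were called lower in Schmid and 0.748% in Cog. In either direction 4310 of them were called in Schmid and 952 in Cog. The median differences of the 43 genes were -0.575 in Schmid and -0.4 in Cog. Of the 36 above background on at least 6 arrays, the same numbers were called in Schmid, and 6 were lower in Cog. Lower in both mutants were 5, Gpihbp1, Icam2, Ctla2a, Fli1 and Foxc2. The share of all probes called lower in both was not computed, so this overlap is a description only. The Cog count fell to 2 without WtCog replicate 2, to 3 without WtCog replicate 3 and to 4 without Cog replicate 1 or Cog replicate 2. Without these arrays the Cog calls over all probes fell from 952 to 303, 483, 738 and 784.

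Among 14 other receptors, 3 were lower in Schmid and none passed in Cog. Ramp2, which partners the adrenomedullin receptor, was 8.06-fold lower in Schmid (adjusted p = 0.00105). Ptprb, the phosphatase VE-PTP that acts on VE-cadherin and Tie2, was 4.66-fold lower (adjusted p = 0.00486). Agtrl1, the apelin receptor, was 3.36-fold lower (adjusted p = 0.0099). Tek, the receptor of the angiopoietins, differed by -0.34 in Schmid (adjusted p = 0.448) and by 0.38 in Cog (adjusted p = 0.533).

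Among 15 other surface or secreted endothelial genes, 7 were lower and 1 was higher in Schmid, and 3 were lower and 1 higher in Cog. Mmrn2, a matrix protein that binds Cd93, was 7.92-fold lower in Schmid (adjusted p = 0.000341). Cd34 was 7.36-fold lower (adjusted p = 0.000275) and Icam2, an endothelial adhesion molecule, 5.14-fold lower (adjusted p = 0.00301). Icam2 was also 3.85-fold lower in Cog (adjusted p = 0.0278), as were Ctla2a by 3.50-fold (adjusted p = 0.00831) and Gpihbp1, which anchors lipoprotein lipase to capillaries, by 2.44-fold (adjusted p = 0.0312).

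Clec14a in Cog and Vwf in Schmid were the genes of that list that were called higher. Clec14a, a C-type lectin of the same family as Cd93, read 9.83, 10.19 and 10.05 in Schmid and 11.40, 12.56 and 13.35 in wildtype, 5.32-fold lower (adjusted p = 0.00217). In Cog its mean was 13.9 ± 0.28 (SD, n = 3) against 12.2 ± 0.23 in wildtype, 3.27-fold higher (adjusted p = 0.0365). Vwf, the von Willebrand factor of endothelial cells and platelets, was 2.20-fold higher in Schmid (adjusted p = 0.0216) and differed by -0.15 in Cog (adjusted p = 0.81). The Clec14a call in Cog was lost without any 1 of 10 arrays (adjusted p from 0.0516 to 0.125), WtSch replicate 1 and WtSch replicate 3 being the exceptions, and that of Vwf in Schmid without Schmid replicate 2 or 3 or WtSch replicate 2 or 3 (adjusted p from 0.0653 to 0.076).

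Among 14 transcription factors of endothelial cells, 4 were lower in Schmid and 4 in Cog. Foxc2, a forkhead factor of vessels that is also made in cartilage, was 4.07-fold lower in Schmid (adjusted p = 0.000426) and 2.72-fold lower in Cog (adjusted p = 0.0109). Fli1, an ETS factor, was 2.69-fold lower in Schmid (adjusted p = 0.00313) and 2.02-fold lower in Cog (adjusted p = 0.0474). Hhex (3.46-fold, adjusted p = 0.0367) and Sox18 (2.35-fold, adjusted p = 0.0422) were lower in Schmid. No Cog array measured Erg or Sox7 well above background. Erg was at least 1.54-fold lower there (adjusted p = 0.0288) and Sox7 at least 1.71-fold (adjusted p = 0.00916). Both are counted as called by their normalised signals, although these bounds are under 2-fold.

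Of 12 ligands that act on vessels, 3 were lower in Schmid, and 1 was lower and 1 higher in Cog. Vegfa, the ligand of Kdr and Flt1, differed by -0.21 in Schmid (adjusted p = 0.62) and by -0.68 in Cog (adjusted p = 0.198). Vegfc, a ligand of Flt4 and Kdr, was 3.46-fold lower in Schmid (adjusted p = 0.000441) and, with no Cog array well above background, lower there by at least 2.06-fold (adjusted p = 0.006). Pgf, a ligand of Flt1, was 2.04-fold lower in Schmid (adjusted p = 0.0108), and Slit3, a guidance ligand, 2.25-fold lower (adjusted p = 0.00603). Efnb2, a ligand of arterial cells that chondrocytes also make, was 6.37-fold higher in Cog (adjusted p = 0.00708).

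Several of these calls rested on the full set of arrays. In Schmid, Hhex lost its call without any 1 of 7 arrays (adjusted p from 0.0516 to 0.128) and Sox18 without any 1 of 8 (0.0508 to 0.134). Pgf fell under 2-fold without Schmid replicate 2 or WtSch replicate 2, and Slit3 without WtSch replicate 1. In Cog, Fli1 lost its call without any 1 of 10 arrays (adjusted p from 0.0552 to 0.121), Erg without each of the 6 Cog and WtCog arrays (0.0504 to 0.111), and Gpihbp1 without any 1 of 6 (0.0521 to 0.0928). Icam2 lost it without each WtCog array (0.0638 to 0.0792) and Foxc2 without WtCog replicate 2 (0.0534). Ramp2, Ptprb, Agtrl1, Mmrn2, Cd34, Icam2, Clec14a, Foxc2, Fli1 and Vegfc in Schmid, and Ctla2a, Sox7, Efnb2 and Vegfc in Cog, kept theirs without each of the 12 arrays in turn.

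**Figure D5:**
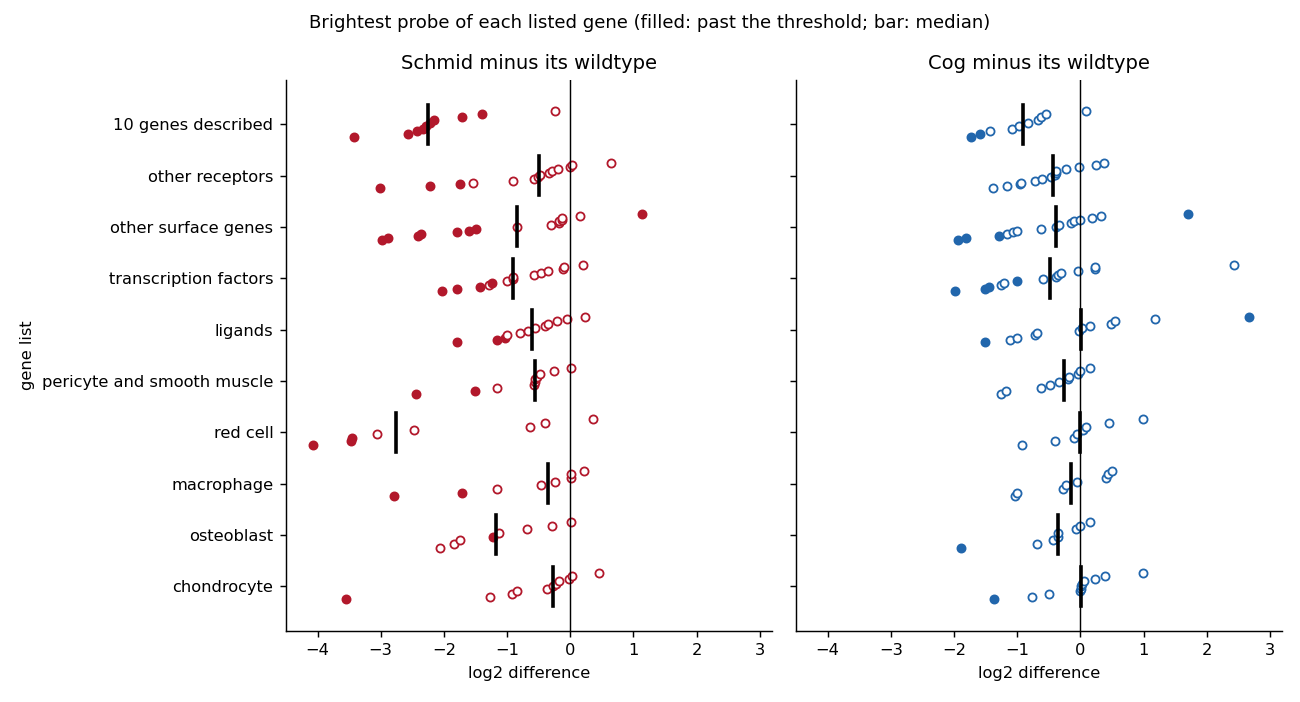
Log2 difference from wildtype (horizontal axis) of each gene of 10 lists (vertical axis), in Schmid on the left and Cog on the right; each point is a gene at its brightest probe, filled if past the threshold, and the bar is the list's median. The medians of the 10 endothelial genes are -2.25 and -0.905, that of the red cell list is -2.77 in Schmid and near 0 in Cog, and that of the chondrocyte list is -0.278 and 0.0161.

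Some markers of other cells, though not of every list, were also called lower in Schmid. Over all probes 4.69% were called lower in Schmid and 0.748% in Cog. Of 8 red cell genes, 3 were lower in Schmid, with a median of -2.77, and none was called in Cog. Hbb-b1, a beta globin, was 16.8-fold lower in Schmid (adjusted p = 0.00146), Hba-a1 11.1-fold (adjusted p = 0.00248), and Alas2, of erythroid haem synthesis, 10.9-fold (adjusted p = 0.00487). The mean level of the list was 10.6 to 11.5 in Schmid, 11.9 to 13.9 in their wildtype, 11.5 to 13.0 in Cog and 11.7 to 12.2 in their wildtype. Of the 3 Cog arrays, 2 were below all 3 of their wildtype and replicate 1 was above them.

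Of 10 pericyte and smooth muscle genes, 2 were lower in Schmid, Tagln by 5.46-fold (adjusted p = 0.000502) and Acta2 by 2.86-fold (adjusted p = 0.0228). None was called in Cog, and Des was below background throughout. The list's mean level was 11.0 to 11.2 in Schmid, 11.8 to 12.1 in their wildtype, 11.6 to 11.7 in Cog and 11.9 to 12.2 in their wildtype. Of 8 macrophage genes, 2 were lower in Schmid, Csf1r by 3.29-fold (adjusted p = 0.0478) and Aif1 by at least 6.74-fold (adjusted p = 0.00679). Their mean level was 10.0 to 10.1 in Schmid, 10.5 to 11.3 in their wildtype, 10.3 to 10.6 in Cog and 10.4 to 10.8 in their wildtype.

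Of 8 osteoblast genes, Col1a1 was lower in Schmid (2.35-fold, adjusted p = 0.0361) and Dmp1 in Cog (3.72-fold, adjusted p = 0.0438). The list's mean level was 14.5 to 15.0 in Schmid against 15.3 to 16.7 in wildtype, and 15.5 to 15.7 in Cog against 15.9 to 16.4. None of 7 osteoclast genes and none of 7 platelet genes was called in either mutant. Of 8 neutrophil genes Prtn3 was lower in Schmid (4.62-fold, adjusted p = 0.000451) and higher in Cog (3.22-fold, adjusted p = 0.00852). The median difference of the 8 was -2.11 in Schmid, where all 8 were below 0, and 1.51 in Cog, where 7 were above 0. Their mean level was 9.415 to 11.27 in Schmid, 10.09 to 13.77 in their wildtype, 10.93 to 12.45 in Cog and 10.13 to 10.5 in their wildtype, so that the groups overlapped in Schmid and not in Cog.

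Of 11 chondrocyte genes, each well above background on all 12 arrays, Ihh was lower in Schmid (11.7-fold, adjusted p = 0.000136) and in Cog (2.59-fold, adjusted p = 0.0361), and the list's mean level was 16.1 to 16.5 in Schmid, 16.6 to 17.5 in their wildtype, 16.9 to 17.0 in Cog and 16.8 to 17.3 in their wildtype. Calls lost without 1 array were those of Acta2 (4 arrays, adjusted p from 0.0545 to 0.0856), Csf1r (8 arrays, 0.0526 to 0.125) and Col1a1 (5 arrays, 0.0509 to 0.123) in Schmid and of Dmp1 (9 arrays, 0.0568 to 0.118) and Ihh (7 arrays, 0.0532 to 0.132) in Cog. The part of these cells, and of where the scalpel cut, in the endothelial differences was not tested.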

How the data were processed

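Per the labels, tibial hypertrophic zones were microdissected, and their RNA was amplified linearly and labelled with Cy3. The authors scanned 1-colour Agilent arrays with Agilent Feature Extraction 9.5.3 and deposited the spot intensity (mean signal, local background and processed signal) and a table of normalised log2 values. Coordinates are those of the scanner files, whose headers name build mm7.

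From the deposited intensity, background was corrected with normexp (offset 50), flagged spots were left out (99.8% kept), values were quantile normalised over 12 arrays without control spots and averaged per probe, giving 41174 probes. These values correlated with the deposited log2 values by at least 0.99987 on each array. A group-means model was fitted to all 12 arrays in limma 3.58.1 (R 4.3.3) with no block, and calls needed 2-fold and an adjusted p of 0.05. A probe counted as well above background on an array where the scanner software marked so at least 50% of its spots. Where no array of a group was, a fold is given as at least the ratio of the other group's mean to the lowest signal well above background. The number of mice limits precision, with 8 residual degrees of freedom before limma shares the spread over probes.

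The genes and the marker lists were chosen with earlier results of these data known. For each gene the brightest probe was used. From the lists, counts of all genes are given, with at most 4 named per list and direction by fold, other genes being named only where they had been singled out above by a role or a difference between the mutants. The 10 genes most like the endothelial mean were taken by Pearson r over 12 arrays with group means removed. On simulated data with 200 changed probes and independent noise for each probe, the Schmid comparison recovered 72% at a log2 change of 1.5 and 95% at 3. The simulation held no slide effect, and the real Schmid comparison called 4310 probes, so these rates may not carry over to it.

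The alternatives were other background corrections and scalings, the deposited values, kept flagged spots, a filter on dim probes, the replicate number as a block, the slide as a random block, array weights, trends over array rows, a test against 2-fold, the mean of a gene's probes and each array left out.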

Additional observations from a re-analysis of the deposited data

Results flagged for a closer look

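The following genes are singled out because their Schmid and Cog differences differed from each other by the direct test (log2 Schmid difference minus log2 Cog difference, limma, adjusted over all probes). Of the 10 endothelial genes these were Cd93 (-2.44, adjusted p = 0.00256), Egfl7 (-1.59, adjusted p = 0.044), Esam1 (-1.09, adjusted p = 0.0242) and Cdh5 (-0.74, adjusted p = 0.0435).

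The other endothelial genes and ligands were listed here only if called in Schmid or Cog. Among those, the same was found for Cd34 (-1.87, adjusted p = 0.0147), Mmrn2 (-1.92, adjusted p = 0.0197), Plvap (-0.88, adjusted p = 0.0456) and Pgf (-1.58, adjusted p = 0.0102). Sox7 differed the other way (1.39, adjusted p = 0.0185), being lower in Cog alone by the threshold.

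Clec14a (-4.12, adjusted p = 0.00138) was lower than wildtype on all 3 Schmid arrays and higher on all 3 Cog arrays. Efnb2 (-3.46, adjusted p = 0.00285) was called higher in Cog and was 0.79 lower on the log2 scale in Schmid, which did not pass the test (adjusted p = 0.154). Groups of 3 arrays are too small for a test of outlying arrays.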

How the results depend on the processing

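In Schmid, 9 of the 10 genes were called lower in 11 of the 14 alternatives that keep all arrays, 8 in a fit to the comparison's own 6 arrays, 7 with the mean of a gene's probes and 2, Cd93 and Robo4, in a test against a 2-fold null. Leaving out each array in turn gave 8 to 9. Over all probes the Schmid calls went from 4310 to 3753 in the fit to 6 arrays and to 251 against a 2-fold null. In Cog the count of 2 became 1 with the processed signal under either scaling and in a fit to the comparison's own 6 arrays, 4 with the slide as a random block or with array weights, and 0 against a 2-fold null. Leaving out each array gave 1 to 3, with 1 without Cog replicate 1, WtCog replicate 2 or WtCog replicate 3. The Cog calls over all probes moved as well. From 952 they went to 1559 (quantile normalised) and 361 (75th percentile) with the processed signal and 497 in the fit to 6 arrays. They were 1642 with the slide block, 1919 with array weights and 14 against a 2-fold null. The count of 3 for the difference between the mutants became 1 with the processed signal scaled to a common 75th percentile and with a row trend removed, 1 with row and GC trends removed (an alternative chosen after seeing the data), 0 against a 2-fold null, and 1 to 3 without each array. With the processed signal quantile normalised it was 2, Cd93 and Pecam1, Pecam1 (-1.34, adjusted p = 0.0188) being below background on every array. With the background-corrected signal at the 75th percentile it was 3, Cdh5 (-1.19, adjusted p = 0.0298) passing and Egfl7 not. Over all probes the calls for the difference went from 4224 to 3249 with the processed signal at the 75th percentile. They went to 3166 with the row trend removed, 3046 with row and GC trends removed and 212 against a 2-fold null. The cause of these changes was not tested. The wildtype groups gave 0 genes in every alternative run.

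With the replicate number as a block, 9 genes were called in Schmid, 2 in Cog, 0 between the wildtype groups and 2 for the difference between the mutants, where Egfl7 was lost (adjusted p = 0.055) and no other call changed among these genes. Over all probes the block moved the counts of calls from 4310 to 4378 in Schmid, from 952 to 887 in Cog and from 4224 to 4153 for the difference. No source used here ties a replicate number to a litter or day. Same-numbered arrays with group means removed correlated, over all probes, by 0.193, 0.171 and 0.066 in the Schmid comparison, -0.116, 0.0716 and -0.106 in the Cog comparison and 0.406, 0.0465 and 0.19 for the wildtype groups, and 5, 2 and 3 of the 6 arrays in each correlated best with their own number. With only those probes that each of the 12 arrays measured above background, the Schmid values were 0.307, 0.283 and 0.117, all above 0.1, so that the outcome of this check depends on the probes used.

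Scaling to a common 75th percentile moved the median of all probes to -0.346 (background-corrected signal) or -0.396 (processed signal) in Schmid, and to 0.429 in Cog with the processed signal, where the 10 genes had medians of -2.24, -2.68 and -1.16. Among 43 other endothelial genes, the 7 lower in Cog became 3 in a fit to their own arrays, 4 with the processed signal at the 75th percentile, 11 with the slide block and 0 against a 2-fold null, and the 14 lower in Schmid became 2 against a 2-fold null. In the same settings the Cog calls over all probes went from 952 to 497, 361, 1642 and 14, and the Schmid calls from 4310 to 251.

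Directions that turned were those of small log2 differences. Between the wildtype groups Kdr became -0.0446 (processed signal) and -0.0453 (background-corrected signal) at the 75th percentile and -0.0952 with array weights, and ran from -0.264 to 0.241 without each array, as did Flt1 from -0.797 to 0.0744, Cd93 from -0.04 to 0.421 and Egfl7 from -0.557 to 0.068. Pecam1 became -0.0404 in Cog and -0.0286 between the wildtype groups with the mean of its probes. With the mean of a gene's probes the Schmid differences became -1.32 for Kdr, -0.89 for Flt1 and -2.02 for Cd93, and the Cog difference of Cd93 became -0.38. Flt1 in Schmid became -1.53 with array weights and Egfl7 -1.79 without row and GC trends. A filter on dim probes left Pecam1 out, which no array measured above background. The precision is limited by 3 arrays per group.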
